A study of Mus musculus with 18 samples.

Results

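In the mouse spleen 10 immediate early genes were followed: Ier3, Ier2, Fos, Fosb, Jun, Junb, Egr1, Klf10, Atf3 and Dusp1. They were taken by gene symbol, and all 10 were found among the 19320 genes with a unique name in the RPKM table (read counts scaled to transcript length and to library size). The 18 RNA-seq libraries came from spleens of male ICR mice, an outbred strain, at 10 weeks of age, in 6 groups of 3. Con mice had a regular diet with saline. A10 mice received alginate oligosaccharide (AOS) at 10 mg/kg. STZ mice received a single dose of streptozotocin, a toxin that destroys pancreatic beta cells and is used to model type 1 diabetes. STZ-A10 mice received both agents. A10 and STZ-A10 are known from the sample labels, while the study's methods list only Con, STZ, Con-FMT and A10-FMT in the streptozotocin experiment. When and how long A10 and STZ-A10 mice were dosed with AOS is therefore unknown. A10-FMT and Con-FMT mice received streptozotocin followed by oral gut microbiota, in the first case from donors dosed with AOS at 10 mg/kg and in the second from control donors. The donor material was small intestinal content pooled within each donor group, so all transplanted mice of a group shared one inoculum. Thus 4 groups (12 libraries) carried STZ and 2 groups (6 libraries) did not.

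Immediate early genes are switched on within minutes of a stimulus by transcription factors that are already present in the cell, so no new protein synthesis is needed. Growth factors, cytokines and cell stress switch them on, and most of their mRNAs decay quickly. Fos, Fosb, Jun and Junb encode subunits of the dimeric transcription factor AP-1, Egr1 and Klf10 encode zinc finger transcription factors, Atf3 encodes a stress-induced factor of the ATF/CREB family, Dusp1 encodes a phosphatase that switches off MAP kinases, Ier3 encodes a short-lived regulator of cell survival, and Ier2 encodes a nuclear protein. In the spleen they respond, among others, to antigen receptor signals in lymphocytes.

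The set was chosen by a gene family around Ier3, which, like Klf10, had passed the test of STZ against Con in earlier results of these data, so the RPKM of the STZ and Con libraries are the measured values it was selected on. The values of that comparison are therefore given as a description, and its calls support nothing here. The members fell into 2 patterns. Ier3 was higher in every library with STZ than in any without, and Klf10 was highest in STZ and STZ-A10. Fos, Fosb, Jun, Egr1, Atf3, Dusp1 and Ier2 were instead highest in 3 single libraries, each from a different group, and Junb did so in part.

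The promoters of the members are shown for Ier3, whose level followed STZ, and for Fos, Fosb and Dusp1, which were high together in the same 3 libraries. RefSeq sequences (GRCm38.p6) of the 250 bases before the transcription start were used for 7 members, namely Ier3, Fos, Fosb, Jun, Junb, Atf3 and Dusp1. Ier2, Klf10 and Egr1 are named only. The stretches run 5′ to 3′ on the strand of the gene and stop before any annotated exon base at the start, and capitals mark a motif match on either strand.
Ier3, chr17:35821563-35821683, plus strand: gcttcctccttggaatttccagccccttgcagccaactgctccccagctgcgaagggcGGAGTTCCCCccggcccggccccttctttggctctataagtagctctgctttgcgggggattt
Fos, chr12:85473740-85473889, plus strand: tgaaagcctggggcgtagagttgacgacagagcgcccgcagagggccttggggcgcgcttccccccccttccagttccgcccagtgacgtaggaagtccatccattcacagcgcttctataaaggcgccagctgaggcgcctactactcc
Fosb, chr7:19310052-19310195, minus strand: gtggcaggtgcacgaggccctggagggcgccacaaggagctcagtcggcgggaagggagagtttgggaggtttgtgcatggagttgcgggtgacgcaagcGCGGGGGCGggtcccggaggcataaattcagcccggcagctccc
Dusp1, chr17:26508520-26508622, minus strand: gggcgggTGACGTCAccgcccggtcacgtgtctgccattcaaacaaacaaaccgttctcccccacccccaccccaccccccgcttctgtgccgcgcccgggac

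The 5 motifs fixed for the search were run on both strands of the 250 bases. The cyclic AMP response element TGACGTCA was found in 1 of the 7 members, Dusp1, at -143 to -136 from the start, against 1.55% of all 32851 mouse promoters. The Egr motif GCGNGGGCG was found in Fosb at -50 to -42, against 4.7% of all promoters. The NF-kappaB site was matched in Ier3 at -92 to -83, in Fosb at -188 to -179 and in Fos at -214 to -205, against 3.9% of all promoters. The AP-1 motif TGANTCA (6.75% of all promoters) and the CArG box of serum response factor (1.47%) had no match in the 7 windows. Bases further upstream and the promoters of Ier2, Klf10 and Egr1 were not searched. No matches overlapped each other, and the NF-kappaB matches in Fos and Fosb lie upstream of the stretches shown. A match is a description of the letters in the window.

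The libraries were checked as spleen. All 15 markers of B cells, T cells, red pulp macrophages and spleen stroma were above 0 in every library, and their summed level ranged from 705 RPKM in A10-FMT replicate 3 to 2573 RPKM in Con replicate 3. Between 11532 and 12893 genes reached 1 RPKM. Globin sums ranged from 72495 to 377630 RPKM, the highest in A10-FMT replicate 3. The Con libraries stood apart with 16.3 to 251 RPKM of testis germ cell markers (4 genes), against 0.15 to 7.47 RPKM in the other groups, and 2 of them with 4016 and 14716 RPKM of neutrophil markers (8 genes), against 775 RPKM in Con replicate 3. Exocrine pancreas markers (9 genes) ranged from 22.8 to 18167 RPKM. The number of reads behind each value is unknown, because the table holds RPKM without counts. The labels do not say that the libraries came from separate mice, and p-values then measure the spread between these libraries only. In bulk tissue, fewer cells of a type and less RNA per cell cannot be told apart.

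As RPKM corrects for length, levels can be set side by side. The median over the 18 libraries was 42.6 RPKM for Junb, 30.6 for Ier2, 25.5 for Dusp1, 10.9 for Klf10, 9.12 for Jun, 8.42 for Ier3, 8.36 for Egr1, 2.43 for Fos, 2.04 for Atf3 and 0.465 for Fosb. All members but Fosb (9 genes) reached 1 RPKM in all 18 libraries. Fosb did so in 2 libraries, fell below the filter for testing (1 RPKM in at least 3 libraries) and is described by its values alone. The members also differed in how far they varied: the highest library was 21.5 times the lowest for Fos and 10.2 times for Egr1, but 1.63 times for Klf10.

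Ier3 lies on chromosome 17, 35821684 to 35822923, plus strand (GRCm38, GENCODE release 21). Its RPKM was 4.28, 4.46 and 4.54 in Con, 3.41, 4.30 and 3.32 in A10, 9.71, 15 and 11.6 in STZ, 9.04, 10.7 and 10.1 in STZ-A10, 8.20, 12.2 and 8.92 in A10-FMT, and 5.75, 6.82 and 8.63 in Con-FMT. Every library with STZ (5.75 to 15) was above every library without it (3.32 to 4.54). This holds upward for 17 of 12905 tested genes (0.132%), and the STZ and Con libraries within it had been used to choose Ier3. The group means followed the order STZ (12.1 ± 2.68 RPKM, SD, n = 3), STZ-A10 (9.96 ± 0.858), A10-FMT (9.77 ± 2.13), Con-FMT (7.07 ± 1.46), Con (4.43 ± 0.133) and A10 (3.68 ± 0.542). Neighbours in that order overlapped in their libraries except Con-FMT and Con.

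The effect of STZ on the background of AOS was tested in STZ-A10 against A10, which shares no library with the comparison that chose the members. Ier3 rose, with a log2 fold change of 1.23 on the log2(RPKM + 1) scale (SE 0.168, limma, Benjamini-Hochberg adjusted p = 0.0144, higher in 3 of 3 libraries), and ranked 2 of 12905 by p. Its mean was 2.71 times that of A10. With STZ and Con, which chose it, the log2 fold change was 1.25 and the ratio of means 2.73. The adjusted limma p of STZ-A10 against A10 was 0.0157 when only those 6 libraries were fitted. It rested on single libraries: it was 0.0992 without A10 replicate 1, 0.153 without A10 replicate 3, 0.0713 without STZ-A10 replicate 2 and 0.107 without STZ-A10 replicate 3, while the log2 fold change stayed between 1.18 and 1.32. Whether the STZ difference itself differed with and without AOS was not tested.

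Klf10 lies on chromosome 15, 38291463 to 38300706, minus strand. Its RPKM was 9.77, 9.80 and 10.1 in Con, 9.17, 10.1 and 10.4 in A10, 14.9, 13.5 and 14.1 in STZ, 13.6, 13.8 and 14.7 in STZ-A10, 10.9, 10.1 and 10.7 in A10-FMT, and 10.8, 11.7 and 13.4 in Con-FMT. STZ and STZ-A10 libraries were all above those of the other 4 groups. Of the 12 libraries with STZ, 11 were above the highest library without it (10.43 RPKM), the exception being A10-FMT replicate 2. The means were 14.2 ± 0.707 RPKM in STZ, 14.0 ± 0.594 in STZ-A10, 12 ± 1.32 in Con-FMT, 10.5 ± 0.422 in A10-FMT, 9.91 ± 0.657 in A10 and 9.87 ± 0.154 in Con (SD, n = 3).

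In STZ-A10 against A10 the log2 fold change of Klf10 was 0.46 (SE 0.0903, limma, adjusted p = 0.0660), and its libraries did not overlap. It missed the threshold, ranking 22 of 12905 genes. When A10-FMT replicate 3, a library of neither group, was left out, the adjusted limma p was 0.0363; in the other 17 of 18 omissions it stayed above the threshold, at up to 0.283. In the comparison that chose it, STZ against Con, the log2 fold change was 0.48.

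**Figure D1:**
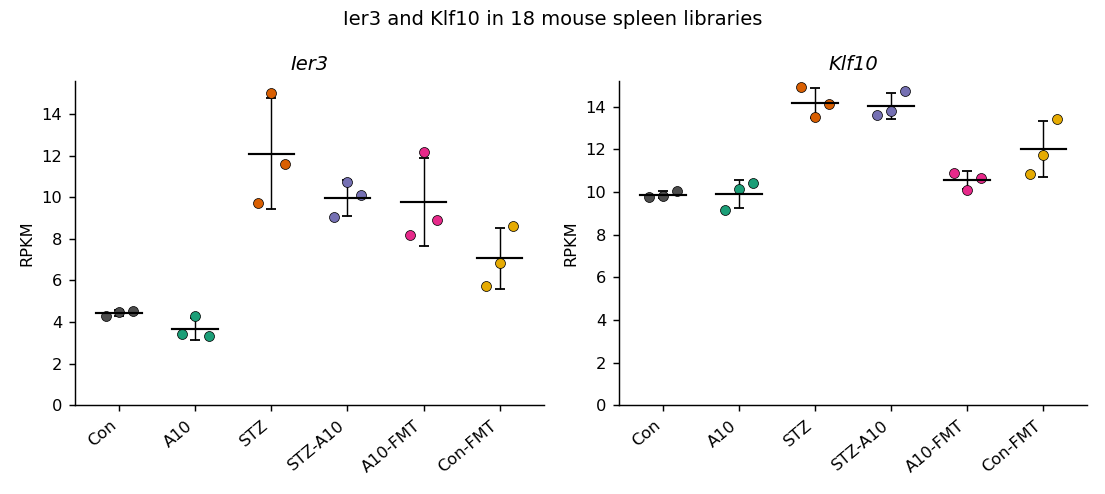
Ier3 (left) and Klf10 (right) in RPKM (y axis, from 0) in each of the 18 libraries, by group (x axis); points are libraries, horizontal lines group means and vertical bars ± 1 SD (n = 3). All 12 libraries with STZ lie above the 6 without it for Ier3 (5.75 to 15 against 3.32 to 4.54 RPKM), and Klf10 is highest in STZ and STZ-A10, at 13.5 to 14.91 RPKM.

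Among all 9 tested members, Ier3 alone passed the adjusted threshold in STZ-A10 against A10 (1 of 9, against 0.0542% of all tested genes). At an unadjusted p under 0.05 there were 2 of 9, Ier3 and Klf10, against 10.2% of all genes. The libraries of STZ-A10 and A10 did not overlap for 5 of the 9, against 22.6% of all genes. Ier3, Klf10, Fos and Dusp1 had the higher values (4 of 9, 7.69% of all genes) and Jun the lower (1 of 9, 14.9%). For Fos the values were 3.76, 2.33 and 4.66 RPKM against 1.71, 2.17 and 2.19, a log2 fold change of 0.57 (SE 0.717, limma, adjusted p = 0.870). For Dusp1 the means were 27.0 ± 5.79 against 17.9 ± 2.09 RPKM (SD, n = 3), a log2 fold change of 0.55 (SE 0.331, limma, adjusted p = 0.627), and for Jun 6.16 ± 1.23 against 8.81 ± 1.38 RPKM, a log2 fold change of -0.46 (SE 0.480, limma, adjusted p = 0.834). In STZ against Con, the comparison that chose them, Ier3 and Klf10 were past the threshold, as were 0.163% of all genes, and nothing is read from this.

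The transplant groups were compared with STZ, whose libraries also entered the comparison that chose the members. None of the 9 tested members passed in A10-FMT against STZ or in Con-FMT against STZ, in each of which 0.00775% of all genes did. Ier3 and Klf10 had been chosen for being high in these STZ libraries, so their values are given with no p. Klf10 was 10.5 ± 0.422 RPKM in A10-FMT against 14.2 ± 0.707 in STZ (SD, n = 3), a log2 fold change of -0.40 (SE 0.0903). The median of all tested genes in that comparison was -0.15, and after each library was centred on its median the value for Klf10 was -0.22. In Con-FMT against STZ the value for Klf10 was -0.23 (SE 0.0903). Ier3 was 7.07 ± 1.46 RPKM in Con-FMT against 12.1 ± 2.68 in STZ, a log2 fold change of -0.70 (SE 0.168), and in A10-FMT against STZ its value was -0.28 (SE 0.168). After the same centring on library medians, the Ier3 value in A10-FMT against STZ was -0.11. At an unadjusted limma p under 0.05 there was 1 of 9 members in A10-FMT against STZ (17.2% of all genes) and 2 of 9 in Con-FMT against STZ (5.24%), all of them Ier3 or Klf10, and nothing is read from these counts.

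A10-FMT against Con-FMT shares no library with the choosing comparison. No gene of 12905 passed the adjusted limma threshold there, 3040 genes (23.6%) had an unadjusted p under 0.05, and the median of all tested genes was -0.17. Ier3 was 9.77 ± 2.13 against 7.07 ± 1.46 RPKM (SD, n = 3), a log2 fold change of 0.41 (SE 0.168, limma, unadjusted p = 0.0260, adjusted p = 0.204), and its libraries overlapped. This fold change was 0.59 after centring on library medians and 0.60 after quantile normalization. With single libraries left out it ranged from 0.26 to 0.55 and never passed the threshold. AOS without STZ (A10 against Con, which shares Con) left all 9 members short of the threshold, with Ier3 at -0.22 (SE 0.168) and Klf10 at 0.00, while 0.00775% of all genes passed. AOS with STZ (STZ-A10 against STZ) also gave 0 of 9, with Ier3 at -0.24 (SE 0.168) and 0.00775% of all genes past the threshold; at an unadjusted p under 0.05 both comparisons gave 0 of 9, against 5.25% and 2.93% of all genes.

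**Figure D2:**
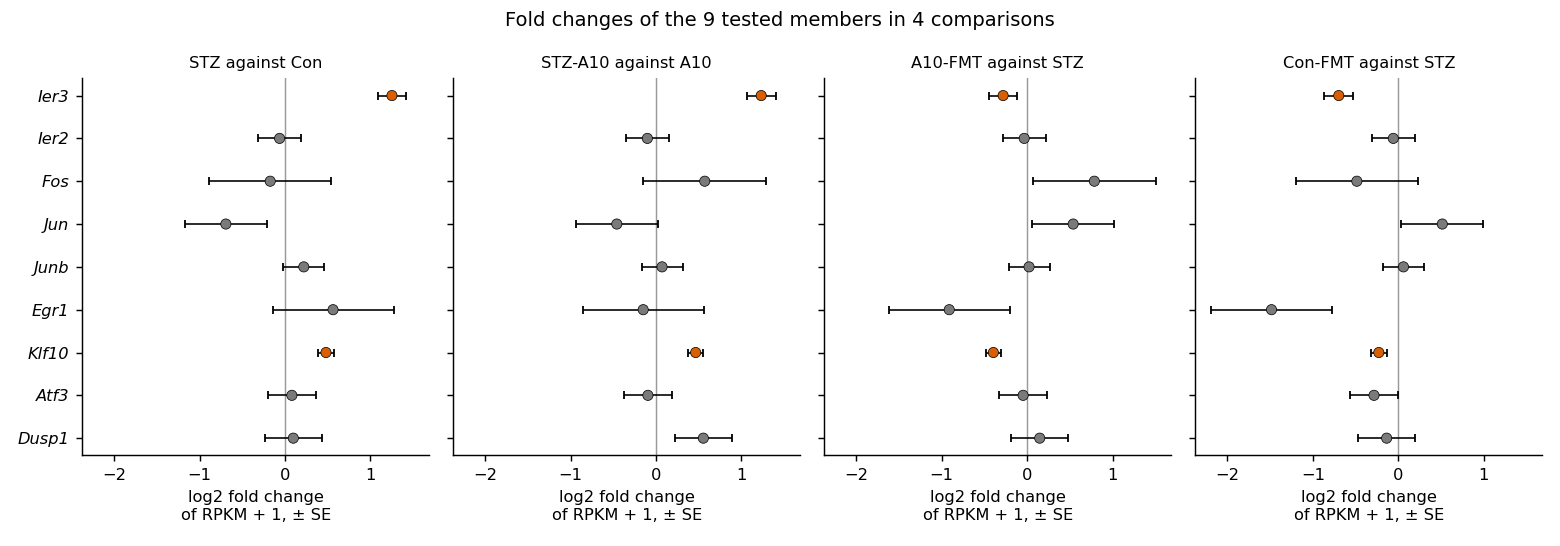
Log2 fold change of RPKM + 1 (x axis, bars ± SE from limma, 3 libraries a group) for the 9 tested members (y axis) in 4 comparisons; Ier3 and Klf10 are in orange. Ier3 stood at 1.25 and 1.23 in the 2 comparisons of STZ with its counterpart, and Fos, Egr1 and Jun had the widest bars, with SE of 0.717, 0.708 and 0.480.

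Marker lists of other cells and tissues were set beside Ier3. Taken over all 12 libraries with STZ and all 6 without, their sums overlapped. Platelet markers (5 of 5 measured, none at 0 in any library) summed to 216 to 794 RPKM in the libraries with STZ and to 668 to 1900 RPKM in those without. Exocrine pancreas markers (9 of 9 measured, none at 0) summed to 149 to 18167 RPKM with STZ and 22.8 to 1824 RPKM without. Adipose markers (4 of 4 measured) summed to 8.6 to 129 RPKM with STZ and 29.4 to 237 RPKM without, and liver markers (7 of 7 measured) to 4.49 to 331 RPKM and 13.6 to 222 RPKM. Between STZ-A10 and A10 alone, where Ier3 was tested, the sums of these lists did not overlap. Pancreas sums were 4625 to 7191 RPKM in STZ-A10 against 45.5 to 709 RPKM in A10. Liver sums were 4.49 to 13.2 against 13.6 to 68.9 RPKM, and adipose sums 26.9 to 72.8 against 82.1 to 237 RPKM. Over the 18 libraries, 5 had liver genes at 0 (at most 4 of the 7) and 1 had an adipose gene at 0. Much of the low liver sums was Serpina1a, at 3.88 to 5.64 RPKM in STZ-A10 and 4.46 to 6.38 RPKM in A10. Platelet sums were 407.68 to 667.45 against 667.92 to 1037.17 RPKM. Sums of heat shock genes (1185 to 1500 against 1666 to 2092 RPKM) and of glucocorticoid-responsive genes (151 to 199.7 against 102 to 111 RPKM) did not overlap either. In STZ-A10 against A10 no gene of these lists passed the adjusted limma threshold. At an unadjusted p under 0.05, 4 of 4 adipose, 3 of 7 liver, 1 of 5 platelet and 1 of 6 heat shock genes were lower (6.42% of all genes). Higher were 7 of 9 pancreas markers and 4 of 5 glucocorticoid-responsive genes (3.79%). Glucocorticoid-responsive genes (5 of 5 measured) summed to 131 to 199.7 RPKM in STZ and STZ-A10, to 71.5 to 154 RPKM in A10-FMT and Con-FMT, and to 70.2 to 150 RPKM in Con and A10. The part of any of these lists in the levels of Ier3 and Klf10 was not tested.

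Fos, on chromosome 12, 85473890 to 85477273, plus strand, behaved otherwise. Its RPKM was 2.86, 1.98 and 11.8 in Con, 1.71, 2.17 and 2.19 in A10, 2.21, 2.50 and 8.15 in STZ, 3.76, 2.33 and 4.66 in STZ-A10, 3.11, 36.7 and 2.41 in A10-FMT, and 2.33, 2.27 and 2.45 in Con-FMT. A single library stood high in each of 3 groups: Con replicate 3, STZ replicate 3 and A10-FMT replicate 2. The other 15 libraries lay between 1.71 and 4.66 RPKM. The A10 libraries (1.71 to 2.19 RPKM) lay just below every library with STZ (2.21 RPKM and more), and no difference of Fos between groups passed the threshold.

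The same 3 libraries, singled out by Fos after its values were seen, were the 3 highest for 7 of the 10 members: Fos, Fosb, Jun, Egr1, Atf3, Dusp1 and Ier2. Among all tested genes, 22 of 12905 (0.17%) had these as their 3 highest libraries, 6 of the members included. Since Fos chose the libraries and the members are known to respond together, this count is a description.

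Egr1, on chromosome 18, 34859823 to 34864984, plus strand, had 8.34, 7.66 and 41.2 RPKM in Con, 7.82, 8.68 and 9.88 in A10, 9.80, 26.1 and 36.5 in STZ, 8.37, 6.74 and 8.37 in STZ-A10, 4.99, 47.6 and 4.67 in A10-FMT, and 6.87, 7.76 and 6.30 in Con-FMT. Besides the 3 libraries, STZ replicate 2 was high. The STZ libraries, the lowest at 9.80 RPKM, lay above all of Con-FMT and all of STZ-A10. Of all tested genes, 6.22% were lower without overlap in Con-FMT against STZ and 4.71% in STZ-A10 against STZ. The log2 fold change was -1.48 in Con-FMT against STZ (SE 0.708, limma, adjusted p = 0.942), -1.34 in STZ-A10 against STZ (SE 0.708, limma, adjusted p = 0.996) and -0.91 in A10-FMT against STZ (SE 0.708, limma, adjusted p = 0.456).

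Of the AP-1 partners of Fos, Jun, on chromosome 4, 95049034 to 95052222, minus strand, had 22.8 RPKM in Con replicate 3, 13.6 in STZ replicate 3 and 20.5 in A10-FMT replicate 2, against 3.27 to 11.0 RPKM in the other 15 libraries. Its lowest values were in STZ replicate 1 (3.27 RPKM), STZ-A10 replicate 2 (4.76 RPKM) and A10-FMT replicate 3 (4.85 RPKM). Junb, on chromosome 8, 84974484 to 84978718, minus strand, had 46.6, 52.4 and 76.0 RPKM in the same 3 libraries and 30.5 to 55.1 RPKM in the others, and was the AP-1 gene with the highest level and the smallest ratio of highest to lowest library (2.49). STZ-A10 replicate 1, at 55.1 RPKM, exceeded 2 of the 3 libraries, and Con-FMT replicate 1, at 49.2 RPKM, exceeded Con replicate 3. Fosb, on chromosome 7, 19302696 to 19310051, minus strand, had 0.71, 2.15 and 1.51 RPKM in the 3 libraries and 0.22 to 0.62 RPKM in the others.

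Atf3, on chromosome 1, 191170296 to 191218039, minus strand, had 3.27, 5 and 4.44 RPKM in these libraries against 1.49 to 2.45 RPKM elsewhere. Ier2, on chromosome 8, 84661331 to 84662852, minus strand, had 45.3, 38.5 and 53.9 RPKM against 20.3 to 34.5 RPKM. Dusp1, on chromosome 17, 26505590 to 26562128, minus strand, had 45.8, 41.3 and 47.3 RPKM against 16.0 to 34.6 RPKM. Dusp1 was spread the most of the 3 among the remaining libraries, which included 32.7 RPKM in STZ replicate 2, 33.3 RPKM in STZ-A10 replicate 3, 32.7 RPKM in A10-FMT replicate 3 and 34.6 RPKM in Con-FMT replicate 3. Klf10 did not join the pattern, at 10.1, 14.1 and 10.1 RPKM in the 3 libraries.

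**Figure D3:**
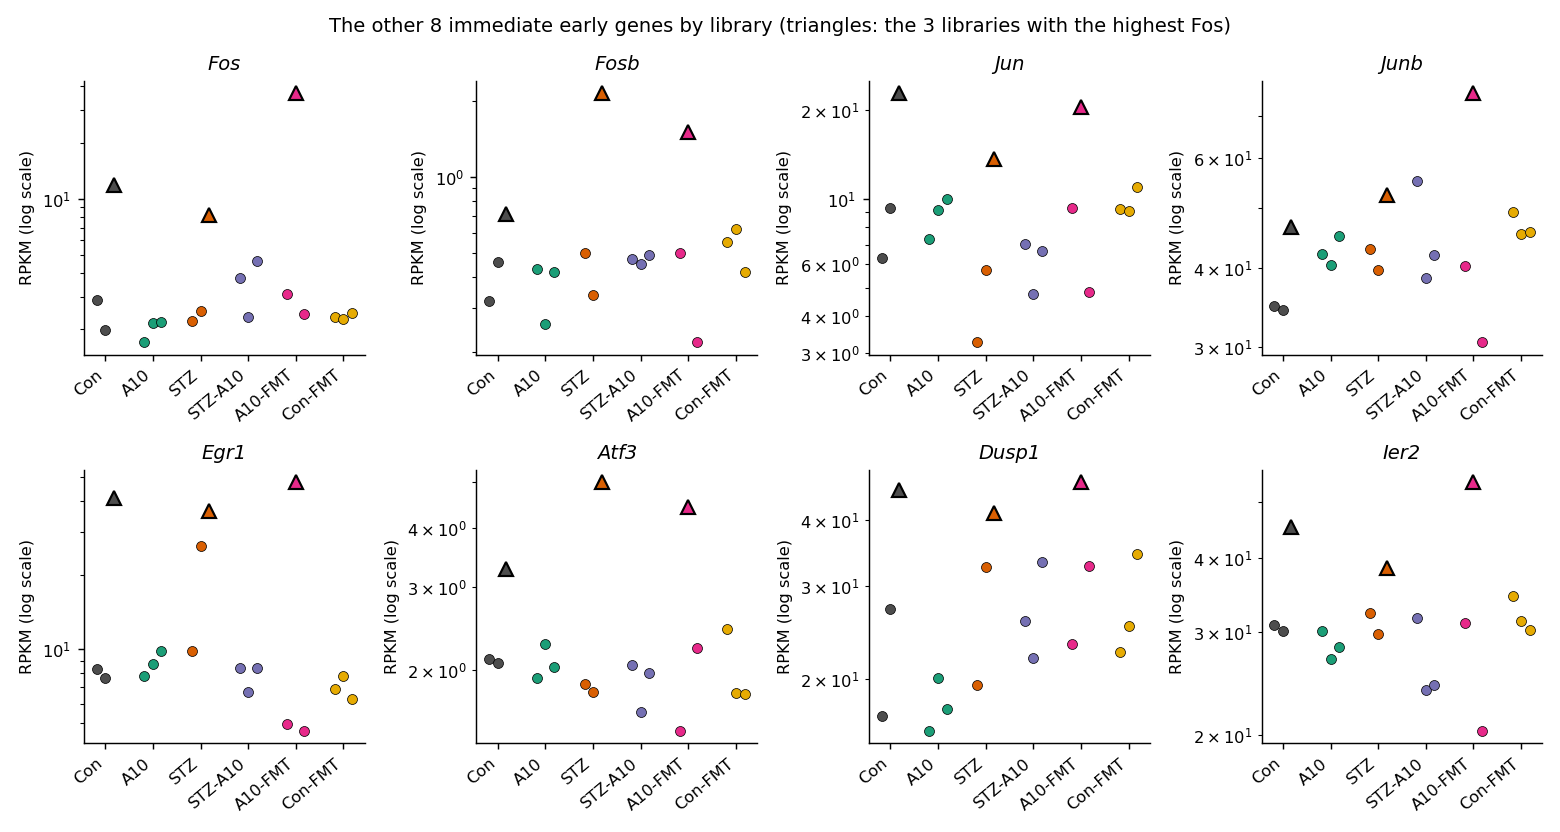
RPKM on a log scale (y axis, scaled for each gene) of the 8 members other than Ier3 and Klf10 in each library, by group (x axis); points are libraries, and triangles are Con replicate 3, STZ replicate 3 and A10-FMT replicate 2. The triangles are the 3 highest points for every gene except Junb. There STZ-A10 replicate 1 at 55.11 RPKM lies above 2 of them, and Con-FMT replicate 1 at 49.18 RPKM lies above Con replicate 3.

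The 3 libraries were set beside the other 15 for the marker lists. Their heat shock sums (6 of 6 genes measured, none at 0) were 3079 RPKM in Con replicate 3, 2739 in STZ replicate 3 and 1934 in A10-FMT replicate 2, against 1046 to 2396 RPKM in the others with a median of 1666 RPKM. Exocrine pancreas sums were 22.8, 966 and 18167 RPKM in the same order, the lowest and the highest of all 18 libraries among them. Neutrophil sums were 775, 1647 and 1564 RPKM and globin sums 145019, 285158 and 222732 RPKM, both within the range of the others. The part of these in the high libraries was not tested.

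Over the 18 libraries, 28 of the 45 pairs of members correlated (Pearson r of log2(RPKM + 1), permutation test with 100000 permutations, two-sided, Benjamini-Hochberg adjusted over the 45 pairs). The share of correlated pairs among all tested genes was not measured, so this count is a description. Ier3 with Klf10 is counted in it, although both were chosen on STZ and Con libraries. Ier3 with Dusp1 is counted as well, at r = 0.55 (permutation p = 0.0178, adjusted p = 0.0286) and rho = 0.59 (permutation p = 0.0109, adjusted p = 0.0817). Of the correlated pairs, 26 were among the 28 pairs of the 8 members other than Ier3 and Klf10. Dusp1 did not pass with Ier2 (permutation test, adjusted p = 0.0868) or with Junb (adjusted p = 0.127). The r of those 28 pairs ranged from 0.42 to 0.85 with a median of 0.71. By Spearman's rho 5 of the 45 pairs passed, and the median rho of the same 28 pairs was 0.42. Fos and Egr1 had r = 0.80 (permutation p = 0.00066, adjusted p = 0.00495) and rho = 0.36 (permutation p = 0.143). Fos and Dusp1 had r = 0.74 (permutation p = 2e-05, adjusted p = 0.0009) and rho = 0.71 (permutation p = 0.00122). Fewer pairs passed without the extreme libraries. Leaving out libraries for their extreme values itself changes r, and here r fell for some pairs and rose for others. Without the 2 libraries farthest from the median of the first gene of each pair, 1 of 45 pairs passed. There r was 0.77 for Fos and Fosb (0.74 over the 18 libraries) and 0.76 for Jun and Junb (0.61). For Ier2 and Fos it was 0.65 (0.78). Over the 15 libraries left without Con replicate 3, STZ replicate 3 and A10-FMT replicate 2 none of the 28 passed, with a median r of 0.01 and a range of -0.34 to 0.61. In the 15 libraries Fos and Egr1 had r = -0.03 (permutation p = 0.887) and Fos and Jun r = -0.06 (permutation p = 0.825).

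Ier3 and Klf10 had r = 0.84 in the 15 libraries, a description, since STZ and Con libraries that chose them are among these. Their libraries fall into those with and without STZ. Within the 12 libraries with STZ they had r = 0.36 (permutation p = 0.254, adjusted p = 0.380 over 6 relations) and rho = 0.34 (permutation p = 0.288), and within the 6 without it r = 0.13 (exact permutation p = 0.779, adjusted p = 0.779) and rho = -0.03 (exact permutation p = 1.0). After group means were removed, r was 0.09 (permutation p = 0.819). Ier3 and Dusp1 had r = 0.51 with STZ (permutation p = 0.0863, adjusted p = 0.275) and r = 0.66 without it (exact permutation p = 0.0917, adjusted p = 0.275), and Ier3 and Fos had r = 0.42 (permutation p = 0.188) and r = 0.49 (exact permutation p = 0.356).

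**Figure D4:**
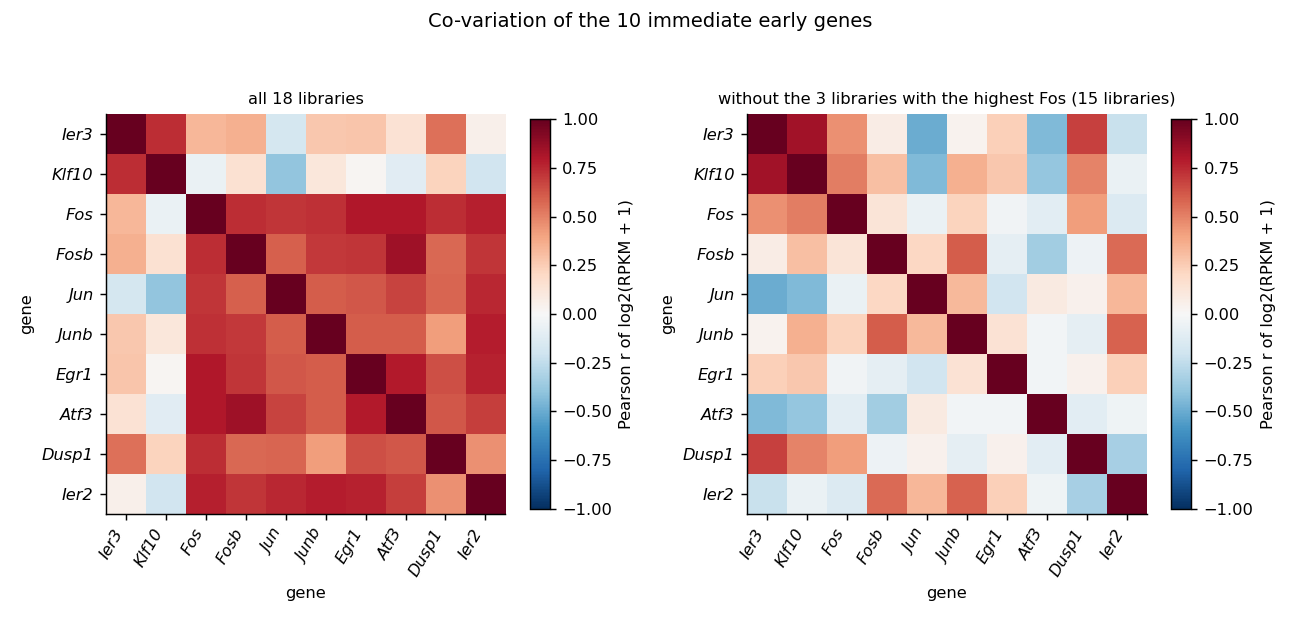
Pearson r of log2(RPKM + 1) between each pair of the 10 members (both axes are genes; red positive, blue negative) over all 18 libraries (left) and over the 15 without the 3 libraries with the highest Fos (right). The red block of the 8 genes from Fos to Ier2 has a median r of 0.71 on the left and 0.01 on the right, while Ier3 with Klf10 is 0.74 on the left and 0.84 on the right.

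The tested genes most like Ier3 over the 18 libraries, given as a description, were Arhgdig (r = 0.85), Pbx3 (0.85), Hpn (0.83), Cdkn1a (0.83) and Cdc42ep4 (0.83). Pbx3 encodes a homeodomain factor, Hpn a membrane serine protease and Cdkn1a the cell cycle inhibitor p21. All 5 kept r at or above 0.84 in the 15 libraries. The genes most like the mean of the 10 standardised members were Nr4a1 (r = 0.90), an immediate early nuclear receptor, Cyr61 (0.81), an immediate early matrix protein, Cxcl1 (0.80), a neutrophil chemokine, and St6galnac1 (0.79), a sialyltransferase. Without the 3 libraries these were 0.44, 0.01, 0.26 and 0.26. Some of the genes named here had low levels. St6galnac1 ran from 0 to 1.85 RPKM, Cxcl1 from 0.09 to 4.83 RPKM and Arhgdig from 0.16 to 6.53 RPKM.

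A list of 48 other immediate early genes was then followed, 45 of which were tested. In STZ-A10 against A10, 0 of 45 passed the adjusted limma threshold, 5 were higher (3.79% of all genes) and 1 lower (6.42%) at an unadjusted p under 0.05, and the median log2 fold change was -0.01 against -0.03 for all tested genes. In A10-FMT against STZ, 0 of 45 passed and 10 were lower at an unadjusted p under 0.05 (15.2% of all genes), with a median of -0.28 against -0.15. In A10-FMT against Con-FMT the counts were 0 passed and 10 lower (20.1%), with a median of -0.27 against -0.17. In the remaining comparisons of A10, STZ-A10 and Con-FMT with their controls 0 of 45 passed. At an unadjusted p under 0.05 there was 1 in A10 against Con (5.25% of all genes), 0 in STZ-A10 against STZ (2.93%), and 2 higher and 3 lower in Con-FMT against STZ (5.24%). In STZ against Con, given as a description, the circadian gene Per1, which is also glucocorticoid-responsive, was the 1 of 45 past the threshold, with a log2 fold change of 1.04. In STZ-A10 against A10 it was 0.96 (SE 0.177, limma, adjusted p = 0.0627).

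Of the 45 genes, 5 (11.1%, against 0.17% of all tested genes) had the same 3 libraries as their highest: Nr4a1, Cyr61, Btg2, Rgs1 and Cxcl1. Because Fos chose the libraries and the list holds other immediate early genes, this count too is a description. Nr4a1 had 26.1 RPKM in Con replicate 3, 40.6 in STZ replicate 3 and 37.9 in A10-FMT replicate 2, against at most 17.1 RPKM elsewhere. Cyr61 had 79.6, 70.8 and 111 RPKM against at most 25.5 RPKM. Btg2, an antiproliferative gene, had 107, 105 and 101 RPKM against at most 92.1 RPKM.

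A list of 18 factors that act upstream of the immediate early genes was measured and tested in full, namely serum response factor, its MRTF and ternary complex partners, CREB and ATF factors, and MAP kinases with their activators and targets. None of the 18 passed the adjusted limma threshold in any of the 7 comparisons. At an unadjusted p under 0.05 there were 0 in STZ against Con, 1 lower in STZ-A10 against A10 (6.42% of all genes), 3 lower in A10-FMT against STZ (15.2%) and 6 lower in A10-FMT against Con-FMT (20.1%), with 0 in the others. Their summed level was 424 to 526 RPKM in the libraries with STZ and 499 to 546 RPKM in those without.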

How the data were processed

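Spleen RNA was enriched for poly(A) and sequenced by the authors on an Illumina instrument. The authors deposited 1 table of RPKM values for 18 libraries. Per the study's methods reads were aligned with SOAPaligner and tested with DEGseq, whereas the submitters' processing notes name Bowtie 0.12.2 and mm10; which made the table, and the annotation, are not given in the sources used here. The table had 19326 lines; 6 lines with 3 repeated names were dropped.

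The members and lists were chosen with earlier results of these data known. Genes with RPKM of at least 1 in at least 3 libraries (12905) were tested as log2(RPKM + 1) with limma 3.58.1 (R 4.3.3; mean-variance trend, 1 coefficient for each of 6 groups over all 18 libraries, two-sided, Benjamini-Hochberg, threshold 0.05), since RPKM cannot enter a count test. In data simulated for STZ-A10 against A10 over 12905 genes, 198 of 200 genes changed by a log2 of 2 were recovered, with 18 false calls. The changed genes were drawn from those with a mean log2(RPKM + 1) above 3, with independent normal noise. The change set was larger than that of any member in this comparison, so recovery of changes like theirs was not measured. Pairs of members were tested by permutation (100000; all orders with fewer than 10 libraries). All 10 members are named; in the other lists those past the threshold, for likeness the 5 highest r (1 of them is not reported here), and genes of the same 3 highest libraries after their values were seen. The interval behind a level is unknown, as depth is. Alternatives were the pseudocount, filters, scalings, trend, array weights, groups fitted, a replicate block, the study's threshold and libraries left out.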

Additional observations from a re-analysis of the deposited data

How the results depend on the processing

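The log2 fold change of Ier3 in STZ-A10 against A10 kept its direction under every alternative run and its side of the threshold in all but 5: the threshold of the study (adjusted p of at most 0.001 and a log2 fold change of at least 1) and the 4 libraries named in the report. The count of members past the threshold there was 1; it became 0 under the threshold of the study, 3 with array weights and 0 to 2 over libraries left out. In STZ against Con the count of 2 became 1 with no filter on low values, with RPKM of at least 1 in every library, with quantile normalization, with median centring, with the replicate block and without the 3 libraries with the highest Fos, 0 with only the compared groups and with the threshold of the study, 5 with array weights, and 0 to 2 over libraries left out (0 without Con replicate 2 or STZ replicate 2). Klf10 was the member lost in the settings that gave 1.

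In the other 5 comparisons the count of 0 stayed 0 over all libraries left out. With array weights it became 3 in A10 against Con, 2 in STZ-A10 against STZ, 5 in A10-FMT against STZ, 3 in Con-FMT against STZ and 3 in A10-FMT against Con-FMT, where 3488 to 8512 of all tested genes passed; that weight estimate stopped before it converged. A gene by gene estimate of the weights, added after this was seen, gave 3 in STZ against Con, 2 in STZ-A10 against A10, 1 in A10 against Con, 3 in A10-FMT against STZ, 2 in Con-FMT against STZ and 1 in A10-FMT against Con-FMT. Without the 3 libraries with the highest Fos, also added, A10-FMT against STZ gave 1, Egr1, with 1693 of all genes past the threshold; these libraries were left out for high Fos, with which Egr1 co-varied, so this call supports nothing. The cause of these changes was not tested.

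The count of 28 correlated pairs became 18 on deviations from the group means, 5 by Spearman, 1 without the 2 libraries farthest from the median, 1 without the 3 libraries with the highest Fos, and 9 to 30 over libraries left out (9 without A10-FMT replicate 2). The numbers in the sample titles gave no clear pairing of the libraries. Same-numbered libraries of different groups had correlations of their deviations of -0.39 to 0.57 (median 0.04), and 14 of 45 were over 0.1. Differently numbered libraries had -0.58 to 0.51 (median -0.0094), and 23 of 90 were over 0.1. The replicate block gave 1 member in STZ against Con and 1 in STZ-A10 against A10. Of 63 fold changes of members, 6 changed sign under quantile normalization or median centring: Klf10 in A10 against Con, Junb in STZ-A10 against STZ, Ier2 and Atf3 in A10-FMT against STZ, and Junb and Klf10 in A10-FMT against Con-FMT. Depth limits are unknown without counts.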
